A study of Mus musculus with 12 samples.

Results

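The genes of cytosolic translation elongation were followed through 4 metabolic organs of the mouse. They were taken by gene symbol alone, and all 7 (Eef1a1, Eef1a2, Eef1b2, Eef1d, Eef1g, Eef2 and Eef2k) are among the 22276 genes listed. The study asked how narciclasine (ncls), a plant alkaloid, acts on diet-induced obesity. RNA was sequenced from the white (WAT) and brown (BAT) adipose depots, liver and quadriceps muscle, with 1 library for each organ and group and 12 libraries in all. All mice were male C57BL/6J animals. The NCD-veh group ate a normal chow diet and received vehicle (veh), the HFD-veh group ate a high-fat diet from 8 wk of age and received veh, and the HFD-ncls group ate the same high-fat diet and received ncls at 1 mg/kg. Gavage with veh or ncls took place once a week, began at 10 wk of age and went on for 7 wk, and the age given for all 12 libraries is 17 wk. Where values of the groups are listed without names, their order is NCD-veh, then HFD-veh, then HFD-ncls. How many mice contributed to a library is not given in the sources used here. With 1 library per organ and group there is no spread between animals, so no test and no p-value is given, and all differences describe these libraries.

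Elongation is the step of protein synthesis that adds amino acids to the growing chain. The GTPase eEF1A brings each aminoacyl-tRNA to the ribosome, the eEF1B complex returns eEF1A to its GTP-bound form, and the GTPase eEF2 moves the ribosome along the mRNA by a codon. Eef1a1 and Eef1a2 encode alternative forms of eEF1A, and Eef1a2 is known as the form of mature skeletal muscle, heart and neurons. Eef1b2 and Eef1d encode the exchange subunits of eEF1B and Eef1g its structural subunit. Eef2k encodes a kinase that phosphorylates eEF2 and slows elongation, and AMP-activated kinase, mTOR and the S6 kinases act on it. Narciclasine itself is known to bind the ribosome and to block peptide bond formation.

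The opposite organ patterns of the genes for eEF1A depend on reads being told apart between close relatives, so their first coding bases are shown. These 90 bases (30 codons) lie in the second exon of each gene, on the minus strand, at chr9:78328372-78328461 for Eef1a1 and chr2:180890022-180890111 for Eef1a2 (mm9). Capitals mark the 15 bases at which they differ from each other, all of them at the third base of a codon.
Eef1a1: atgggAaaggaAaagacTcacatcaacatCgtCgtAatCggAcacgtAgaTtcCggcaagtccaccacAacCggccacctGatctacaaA
Eef1a2: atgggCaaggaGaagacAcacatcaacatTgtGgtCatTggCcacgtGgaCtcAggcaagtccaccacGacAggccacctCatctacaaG
Over the whole coding sequence the genes were identical at 1113 of 1392 aligned positions (80.0%). None of the 2035 windows of 50 bases in the Eef1a2 transcript (0 found) occurred in the Eef1a1 transcript. A pseudogene of Eef1a1, Gm6548 (chr17:79250132-79251296, minus strand, mm9), is listed as a gene of its own and was far closer to Eef1a1. Its aligned stretch, chr17:79251433-79251504, lies just outside the annotated extent and lacks 18 bases from position 34, counted from 1 at the start codon. The capital marks its only substitution against Eef1a1.
Gm6548: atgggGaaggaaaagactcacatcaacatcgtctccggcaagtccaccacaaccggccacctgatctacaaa
In an alignment that took in genome bases beside its annotated extent, Gm6548 matched the Eef1a1 coding sequence at 1330 of 1395 positions (95.3%). The windows were taken from the annotated extent of 1165 bases alone. Of these 1116 windows of 50 bases, 143 (12.8%) occurred unchanged in the Eef1a1 transcript.

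The sequences just before the annotated starts of Eef1a1 and Eef1a2 are shown because these genes had the most opposite levels across organs. They are 250 bases from RefSeq on GRCm38.p6, a build other than that of the expression data, and both lie on the minus strand, at chr9:78481725-78481974 and chr2:181157016-181157265. Capitals mark GC boxes (GGGCGG on either strand).
Eef1a1: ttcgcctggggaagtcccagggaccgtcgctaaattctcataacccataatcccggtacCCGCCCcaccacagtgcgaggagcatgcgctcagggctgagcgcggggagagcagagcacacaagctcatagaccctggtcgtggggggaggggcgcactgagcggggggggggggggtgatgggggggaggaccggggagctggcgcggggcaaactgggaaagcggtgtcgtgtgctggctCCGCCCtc
Eef1a2: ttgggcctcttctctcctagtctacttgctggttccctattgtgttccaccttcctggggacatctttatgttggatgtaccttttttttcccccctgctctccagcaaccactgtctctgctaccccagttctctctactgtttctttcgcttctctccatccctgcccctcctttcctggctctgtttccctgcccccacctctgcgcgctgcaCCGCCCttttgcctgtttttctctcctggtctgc
Eef1a1 held 2 GC boxes and Eef1a2 held 1, and such a box was found in 32.7% of 32851 mouse promoter windows of this length. The base content differed, with 68% G and C for Eef1a1 and 54% for Eef1a2. Neither window held a TATA box (TATAAA, in 12.4% of windows), an E-box (CANNTG, in 66.2%) or a match to the MEF2 motif (in 0.508%), with both strands searched. These letters may partly overlap between motifs. Of the members, 5 had an entry in the promoter table used, and Eef1d and Eef1g were not matched.

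Expression is given as FPKM, the fragments mapped to a gene divided by its exon length and by the size of the library, so that levels of different genes can be compared per length. Between 9130 and 12052 genes had an FPKM of at least 1 in a library. The depth was known only approximately, from the steps between low FPKM values, and came to about 18800000 to 26700000 fragments. Some libraries held low levels of markers of another organ. The median liver marker stood at 0.544% of its liver level in the muscle library of HFD-veh mice and at 0.238% in the WAT library of HFD-ncls mice, muscle markers stood at 0.0626% of their muscle level in HFD-veh liver, and the muscle markers of BAT are given with Eef1a2 below. The organ labels otherwise held, with 9 liver markers summing to 46117 to 50703 FPKM in liver, 12 muscle markers to 111743 to 116914 in muscle, 7 adipocyte markers to 17739 to 20418 in WAT and 7 brown fat markers to 2168 to 2502 in BAT. In these bulk tissues, fewer cells of a type and less RNA per cell cannot be told apart.

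The plot of all members by library shows organ differences of very unequal size. The means of Eef1a1 spanned 20.7-fold between organs and those of Eef2k 9.23-fold, while Eef1d and Eef2 overlapped in 3 of the 4 organs and Eef1a2 overlapped between BAT, WAT and liver. Together the 7 genes took between 0.363%, in muscle, and 0.603%, in WAT, of a library's summed FPKM.

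**Figure D1:**
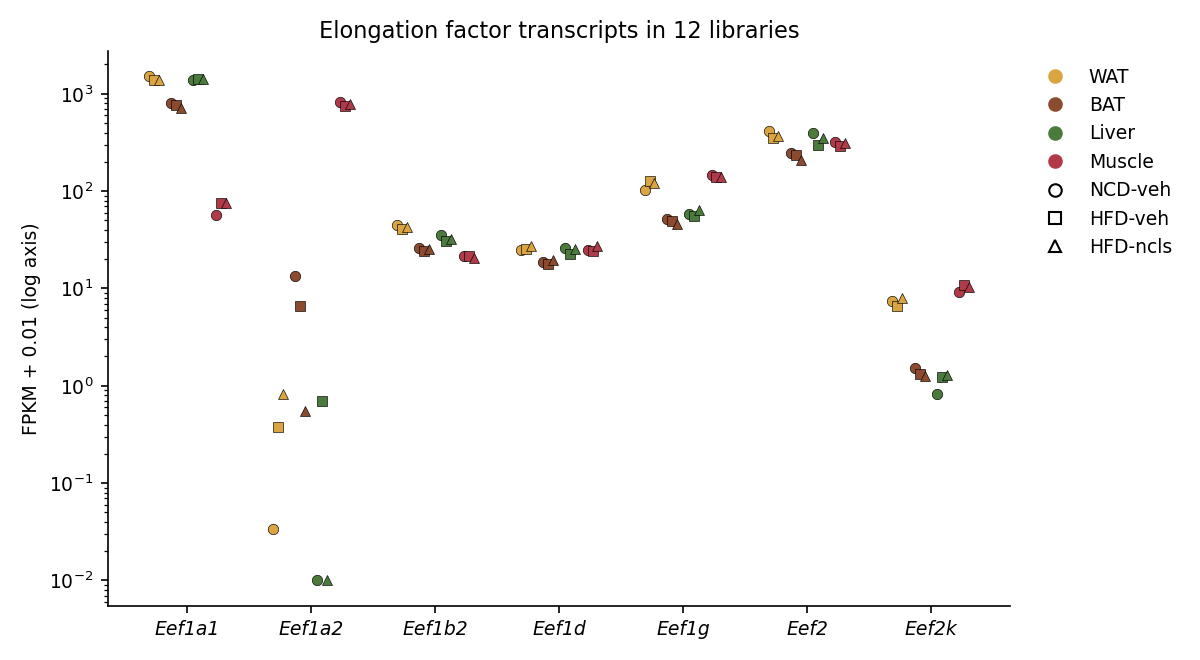
FPKM plus 0.01 on a log axis for the 7 members, with 1 point per library, colour for organ and symbol for group. Points of the same organ lie close together for every gene except Eef1a2 outside muscle, where values run from 0 to 13.3 FPKM.

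Eef1a1 and Eef1a2 divided the organs between them. The Eef1a1 level was 1524 FPKM in NCD-veh WAT, 1383 in HFD-veh WAT and 1389 in HFD-ncls WAT. Liver lay in the same range, at 1378, 1434 and 1415 FPKM. BAT was lower, at 814, 771 and 719 FPKM in the same order of groups. WAT and liver therefore overlapped, and every BAT library was below every library of either. In WAT, Eef1a1 ranked 16 or 17 among all genes listed. In muscle its level was 56.5 FPKM in NCD-veh, 75.7 FPKM in HFD-veh, and 75.6 FPKM in HFD-ncls mice, with ranks between 504 and 671. The mean of the 3 WAT libraries was 20.7 times that of the 3 muscle libraries, and the mean of BAT, the next lowest organ, was 11.1 times that of muscle.

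Eef1a2 showed the reverse pattern. Its level in muscle was 822 FPKM in NCD-veh, 754 FPKM in HFD-veh, and 777 FPKM in HFD-ncls mice, with ranks of 34 to 37. BAT followed at 13.3, 6.54 and 0.537 FPKM in the same order of groups. In WAT the levels were 0.0238, 0.367 and 0.806 FPKM. Liver gave 0.686 FPKM in HFD-veh and was listed at 0 in NCD-veh and HFD-ncls. All 3 muscle libraries were thus far above the rest, while the ranges of BAT, WAT and liver overlapped. The mean in muscle was 116 times that in BAT, and 216 times without the NCD-veh libraries. Within a group, the ratio was lowest in NCD-veh at 62.0, then 115 in the HFD-veh libraries, and highest with ncls at 1445.

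The sum of both eEF1A genes varied less over organs than either gene. It was 1383 to 1525 FPKM in WAT, 1378 to 1435 in liver, 829 to 879 in muscle and 720 to 827 in BAT. Muscle and BAT did not overlap but lay close to each other, both below WAT and liver. Eef1a2 made up 93.6%, 90.9% and 91.1% of this sum in muscle. In BAT its share was 1.60%, 0.841% and 0.0747%. In WAT and liver its share did not exceed 0.0580%. These shares are formed within a library and do not depend on the scaling between libraries.

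**Figure D2:**
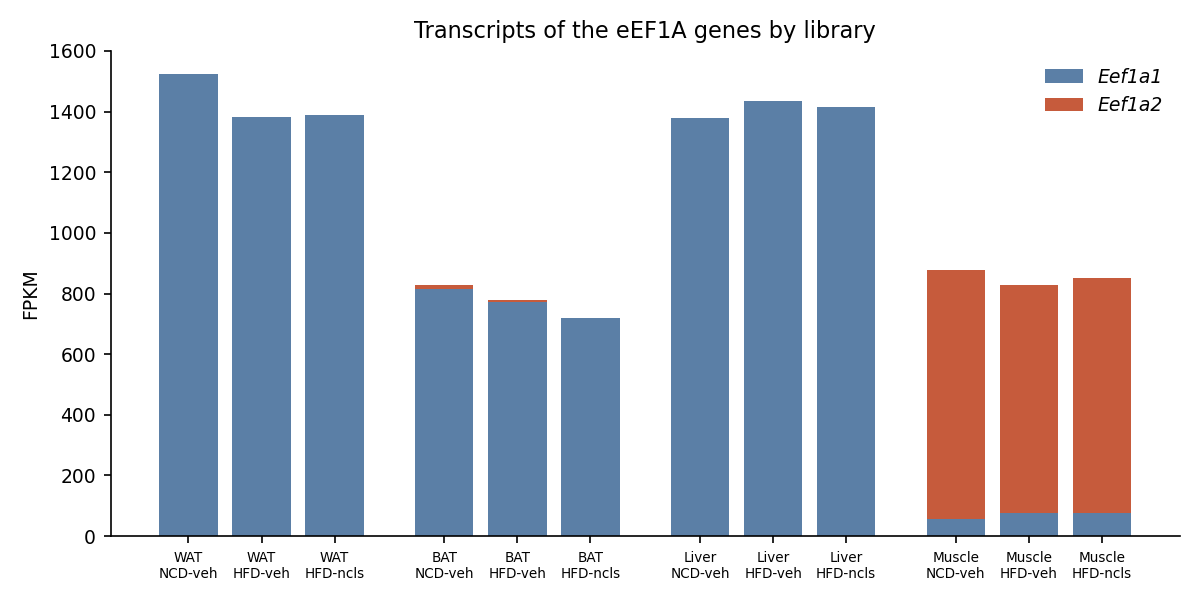
FPKM of Eef1a1 (lower part) and Eef1a2 (upper part) stacked for each of the 12 libraries, on a linear axis from 0. Muscle bars are almost all Eef1a2, at 90.9% to 93.6% of the sum, and all other bars almost all Eef1a1.

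The Gm6548 pseudogene followed Eef1a1 in every library. Its level ran from 6.67 FPKM in NCD-veh muscle to 165 FPKM in NCD-veh WAT, and was between 10.7% and 11.9% of the Eef1a1 level in all 12 libraries. How the counting shared fragments between the gene and its near-copy is not given in the sources used here, so the split between them is uncertain. The part of shared fragments in this ratio was not tested.

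The guanine exchange complex differed between organs subunit by subunit. Eef1b2 was highest in WAT at 44.4, 41.1 and 42.4 FPKM. Liver had 35.4, 31.0 and 32.3 FPKM and BAT 25.9, 24.2 and 25.5 FPKM. Muscle was lowest at 21.6, 21.7 and 20.5 FPKM. None of the 4 ranges overlapped, but the whole span was only 2.01-fold between the means of WAT and muscle. Eef1d was the most even member, with means that spanned 1.38-fold. It was 24.6, 25.5 and 27.3 FPKM in WAT, 25.1, 24.3 and 27.3 FPKM in muscle and 26.0, 22.5 and 25.6 FPKM in liver. Its BAT libraries, at 18.6, 17.8 and 19.7 FPKM, were below all libraries of the other organs, whose ranges overlapped.

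Eef1g had an order of its own. Muscle was highest, at 147, 139 and 140 FPKM. WAT followed at 104, 128 and 122 FPKM. Liver had 58.7, 55.3 and 64.2 FPKM and BAT 52.0, 49.2 and 46.4 FPKM. No neighbouring ranges overlapped, and the means of muscle and BAT differed 2.89-fold. The organ with the least Eef1b2 therefore had the most Eef1g. The ratio of Eef1g to Eef1b2 was 6.41 to 6.83 in muscle and 1.66 to 3.11 in the other 3 organs. Muscle was also the only one of the 4 organs in which Eef1b2 was below Eef1d in all 3 libraries, with a ratio of 0.751 to 0.891 against 1.26 to 1.80 elsewhere.

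**Figure D3:**
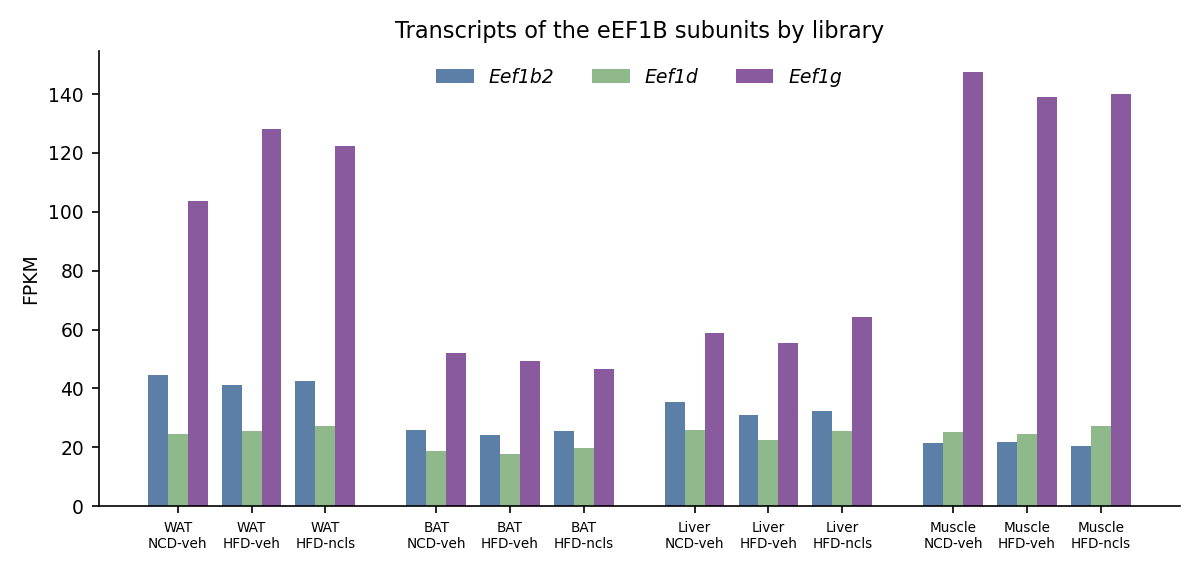
FPKM of the eEF1B subunit genes in each of the 12 libraries, as bars from 0. The Eef1g bar is the tallest in every library and highest in muscle (139 to 147 FPKM), where the Eef1b2 bar is the shortest.

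Eef2, the translocase gene, was abundant in all organs. It stood at 414, 351 and 369 FPKM in WAT, at 396, 298 and 350 FPKM in liver and at 319, 291 and 311 FPKM in muscle. These 3 ranges overlapped. BAT was lower in every library, at 248, 233 and 211 FPKM, and the means of WAT and BAT differed 1.64-fold. Set against it, the summed eEF1A transcripts were 2.74 to 2.85 times the Eef2 level in muscle, 3.33 to 3.41 times in BAT, 3.68 to 3.94 times in WAT and 3.48 to 4.82 times in liver. The highest of these ratios belonged to HFD-veh liver, the liver library with the lowest Eef2.

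Eef2k, the kinase gene, was the least abundant member apart from Eef1a2 outside muscle. Muscle had 9.25, 10.9 and 10.4 FPKM, and WAT 7.45, 6.57 and 7.98 FPKM. BAT had 1.496, 1.30 and 1.26 FPKM. Liver had 0.807, 1.23 and 1.27 FPKM, a range that overlapped that of BAT. The means of muscle and liver differed 9.23-fold. Relative to its substrate, the Eef2k level was 2.90% to 3.76% of Eef2 in muscle, 1.80% to 2.16% in WAT, 0.557% to 0.602% in BAT and 0.204% to 0.415% in liver, with no overlap between the organs. A second annotated gene of the same name lies within Eef2k (chr7:127986345-128050733, plus strand, mm9), and annotated transcripts of 1781 to 6349 bases leave the fragments behind a value uncertain.

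The first comparison asked what ncls changed on a high-fat diet. Ratios of HFD-ncls to HFD-veh were formed on log2(FPKM + 0.1) for genes that reached an FPKM of 1 in either library, and a ratio past 1.4-fold (0.49 on this log2 scale) was counted. The members gave 26 ratios, since Eef1a2 was too low in WAT and liver. Only Eef1a2 in BAT passed 1.4-fold, and the other 25 lay between -0.14 and 0.28, the largest a 1.21-fold difference. Of these 25, 17 were within 0.1 of 0. Of all genes tested, 7.68% passed 1.4-fold in WAT, 8.53% in BAT, 14.9% in liver and 13.9% in muscle. The members' counts were 0 of 6 in WAT, 1 of 7 in BAT, 0 of 6 in liver and 0 of 7 in muscle. With so few members, these counts are near that background and nothing particular to the members is read from them. The median log2 ratio of the members was 0.06 in WAT, -0.09 in BAT, 0.12 in liver and 0.01 in muscle, beside 0.04, -0.02, 0.02 and 0.04 for all genes tested.

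**Figure D4:**
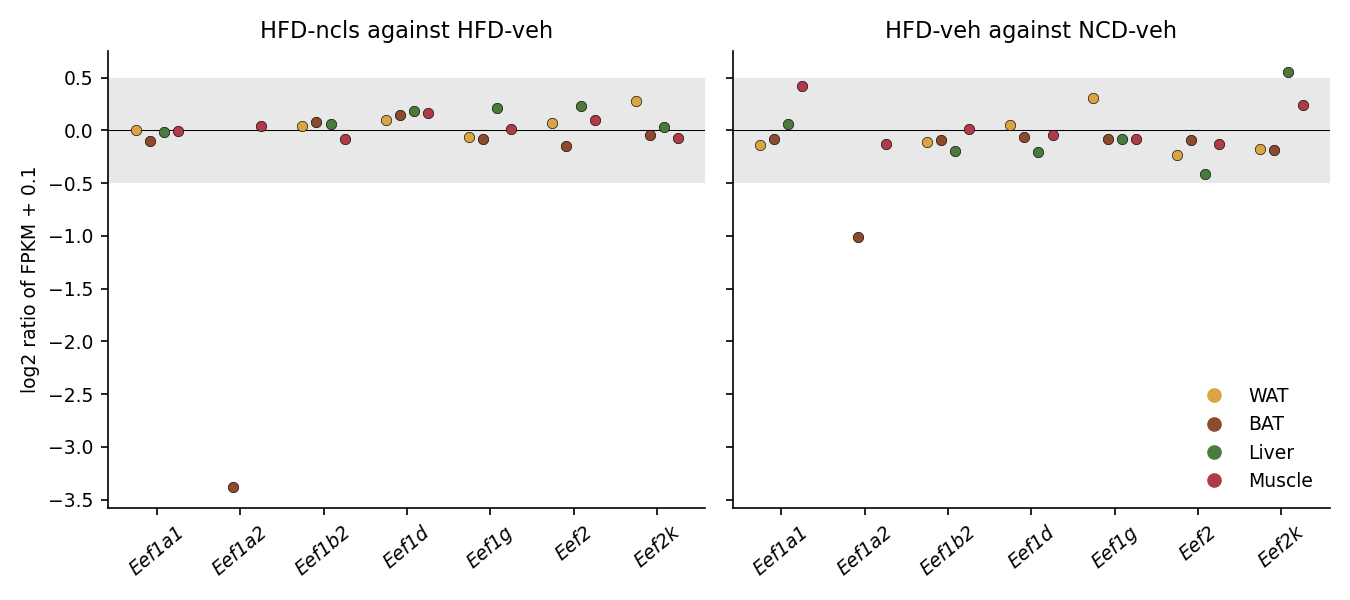
Log2 ratios of FPKM + 0.1 for each member and organ, HFD-ncls against HFD-veh on the left and HFD-veh against NCD-veh on the right, with the grey band marking 1.4-fold in either direction. Only Eef1a2 in BAT (-3.38) lies outside the band on the left, and Eef1a2 in BAT (-1.01) and Eef2k in liver (0.56) lie outside it on the right.

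In quadriceps muscle, the organ on which the study centred, the eEF1A genes differed little between HFD-ncls and HFD-veh. The log2 ratio was 0.04 for Eef1a2 and within 0.01 of 0 for Eef1a1. Eef2 had 0.10, Eef2k -0.08, Eef1b2 -0.08 and Eef1d 0.17. Eef1d, the exchange subunit with the flattest organ profile, had log2 ratios of 0.10 in WAT, 0.15 in BAT, 0.18 in liver and 0.17 in muscle. None of these passed 1.4-fold, and that of WAT lay within 0.1 of 0. In liver, Eef2 (0.23) and Eef1g (0.22) were also on the higher side, and in WAT the largest ratio was that of Eef2k (0.28).

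Eef1a2 in BAT was the exception. Its 6.54 FPKM in HFD-veh and 0.537 FPKM in HFD-ncls gave a log2 ratio of -3.38, or a 10.4-fold lower level, and it entered the test through the HFD-veh library alone. The values rest on about 304 to 355 fragments in HFD-veh and about 24.6 to 28.7 in HFD-ncls. Markers of skeletal muscle fibres moved with it. The 12 muscle markers, among them the creatine kinase gene Ckm and the calsequestrin gene Casq1, summed to 2275 FPKM in NCD-veh BAT, 937 in HFD-veh BAT and 140 in HFD-ncls BAT. All of them were lower in HFD-veh than in NCD-veh, and 0 of 12 were above that level in HFD-ncls. As a share of its level in muscle of the same group, Eef1a2 stood at 1.61%, 0.868% and 0.0692% in BAT. The muscle markers stood at medians of 1.89% (1.23% to 5.32%), 0.767% (0.489% to 1.72%) and 0.114% (0.0739% to 0.368%). Eef1a2 thus lay within the range of the muscle markers in NCD-veh and HFD-veh and just below it in HFD-ncls. The 7 neuron markers, the other known site of this gene, summed to 0.204 to 0.441 FPKM in BAT, with between 3 and 5 of them at 0. The brown fat markers summed to 2502, 2168 and 2274 FPKM in the same libraries. The part of muscle RNA in the Eef1a2 difference was not tested.

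**Figure D5:**
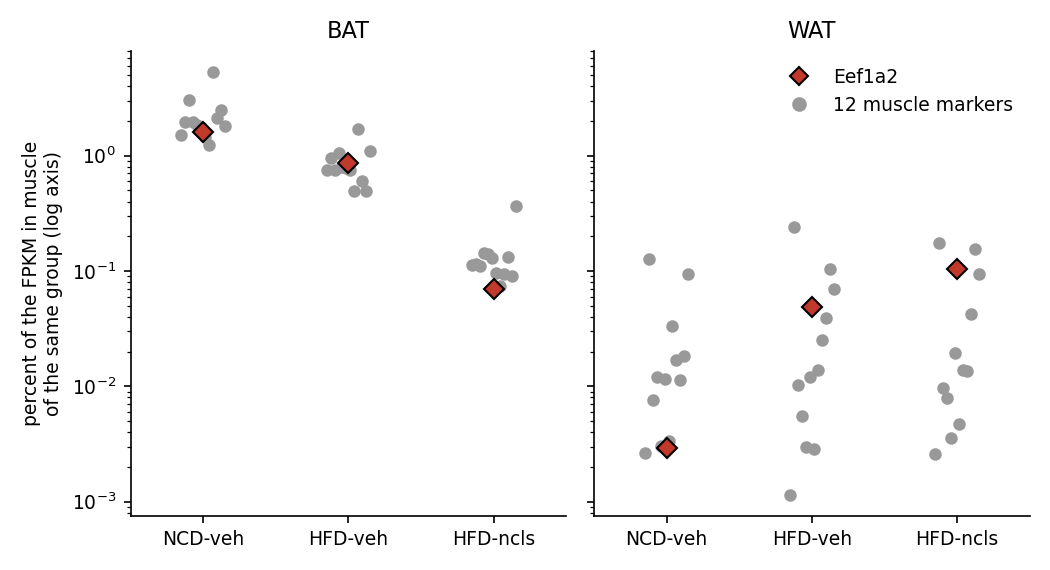
Level of Eef1a2 (diamonds) and of 12 muscle markers (grey circles) in BAT and WAT, each as a percent of its FPKM in the muscle library of the same group, on a log axis. In BAT all 12 markers and Eef1a2 are lower in HFD-ncls than in NCD-veh, Eef1a2 at 0.0692% against 1.61%, while in WAT Eef1a2 goes from 0.00289% to 0.104% and the median marker stays between 0.0118% and 0.0138%.

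In liver, Eef1a2 and the muscle markers again appeared in the same library. Eef1a2 was above 0 only in HFD-veh liver, at 0.0911% of its muscle level, where the 12 muscle markers were at 0.0568% to 0.135%. In NCD-veh and HFD-ncls liver, where Eef1a2 was listed at 0, 5 of the 12 markers were at 0 too. In WAT, the Eef1a2 level stood at 0.00289%, 0.0487% and 0.104% of that in muscle, while the markers' median was 0.0118%, 0.0130% and 0.0138%. In HFD-ncls WAT, 10 of the 12 markers were below Eef1a2. Single markers differed, and 7 of 12 were higher in HFD-veh than in NCD-veh and 8 of 12 higher in HFD-ncls than HFD-veh. Casq1 stood at 0.0183%, 0.103% and 0.154% and Pvalb at 0.0112%, 0.0388% and 0.0425% of their muscle levels. Other markers went the other way, with Actn3 at 0.0336%, 0.0139% and 0.0139% and Tnni2 at 0.0120%, 0.00550% and 0.00796%. Between HFD-ncls and NCD-veh, 7 of the 12 were higher in HFD-ncls. The part of muscle RNA in the WAT values was not tested. These WAT values rest on about 1 fragment in NCD-veh, 13.6 to 15.9 in HFD-veh and 27.1 to 31.6 in HFD-ncls, and Eef1a2 remained below 1 FPKM in all 3. Neuron markers in WAT summed to 5.71, 4.84 and 5.38 FPKM and macrophage and leukocyte markers to 640, 881 and 1109 FPKM.

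The second comparison asked what the high-fat diet changed under veh. It shares the HFD-veh library with the first, so the values of both are only set side by side. Of the 26 ratios of HFD-veh to NCD-veh, 2 passed 1.4-fold, and the other 24 lay between -0.41 and 0.42. Of all genes tested, 29.3% passed 1.4-fold in WAT, 17.6% in BAT, 23.8% in liver and 13.3% in muscle. The members' counts were 0 of 6, 1 of 7, 1 of 6 and 0 of 7. In WAT, where more genes passed than in the other organs, Eef1g was 0.31 higher on the log2 scale and Eef2 0.24 lower (log2 ratio -0.24). The median log2 ratio of the members was -0.12 in WAT, -0.09 in BAT, -0.14 in liver and -0.04 in muscle, beside 0.03, -0.04, 0.04 and 0.03 for all genes tested.

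The ratios past 1.4-fold were those of Eef1a2 in BAT and Eef2k in liver, and only Eef2k lay near the filter of 1 FPKM. Eef1a2 in BAT had 13.3 FPKM in NCD-veh and 6.54 in HFD-veh, a log2 ratio of -1.01, with the muscle markers lower too as given above. Eef2k in liver had 0.807 FPKM in NCD-veh and 1.23 in HFD-veh, a log2 ratio of 0.56 or 1.47-fold, and passed the filter only through the HFD-veh library. Both HFD livers were above the NCD-veh liver, since HFD-ncls liver had 1.27 FPKM. The ratio rests on roughly 34.8 to 124 fragments in NCD-veh and 50.4 to 180 in HFD-veh, and with a pseudocount of 1 it was 0.31 and no longer passed 1.4-fold. Its substrate gene went the other way in the same livers, with Eef2 at 396 FPKM in NCD-veh and 298 in HFD-veh (log2 ratio -0.41), just inside the threshold. Scaling all libraries to the same sum of FPKM moved the median of all genes in this comparison from 0.04 to 0.14, and the Eef2 ratio to -0.31.

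In muscle, Eef1a1 came nearest to 1.4-fold. It was 56.5 FPKM in NCD-veh and 75.7 in HFD-veh, a log2 ratio of 0.42, and HFD-ncls muscle with 75.6 FPKM also had a log2 ratio of 0.42 to NCD-veh. Liver markers summed to 1.94, 526 and 0.761 FPKM in the 3 muscle libraries. The part of liver RNA in this ratio was not tested. Adipocyte markers summed to 271, 361 and 343 FPKM in the same order, and 7 of 7 were higher in HFD-veh and 6 of 7 in HFD-ncls than in NCD-veh. Macrophage and leukocyte markers summed to 17.5, 20.1 and 27.4 FPKM, with 7 of 8 higher in either HFD library. The part of fat or immune cells in the Eef1a1 level of muscle was not tested. Eef1a2 had a log2 ratio of -0.13 in the same comparison, so that the Eef1a1 share of eEF1A went from 6.43% in NCD-veh to 9.13% in HFD-veh and 8.87% in HFD-ncls.

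Genes whose profile over the 12 libraries was most like that of a member were listed as a description. The libraries of an organ share that organ, so these correlations follow the differences between 4 organs. Eef1a1 was most like its pseudogene Gm6548 (Pearson r of log2 values 1.000), then Arl6ip1 (0.998) and Myo6 (0.996). Eef1a2 was most like Casq1 (0.996), the fast-fibre calsequestrin and also one of the 12 muscle markers, then Pygm (0.991), the muscle glycogen phosphorylase, and Mylk2 (0.991), the skeletal myosin light chain kinase. Eef1b2 was closest to Abca3 (0.988), Eef1g to Ado (0.991) and Eef2k to Rc3h2 (0.993). The flat profiles of Eef1d and Eef2 had less close neighbours, Arvcf at 0.944 and Ctsc at 0.943. For Eef1d and Arvcf, Spearman's rho was 0.699. The order of likeness also depended on the measure. By Spearman's rho among 10407 genes, Abca3 ranked 259 for Eef1b2, Rc3h2 375 for Eef2k and Arl6ip1 314 for Eef1a1, while Gm6548 ranked 1 for Eef1a1.

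The wider translation machinery was read from lists by function. Of 12 other cytosolic elongation, release and recycling factors, 10 or 12 could be tested per organ, and 0 passed 1.4-fold between HFD-ncls and HFD-veh in any organ, beside the 7.68% (WAT) to 14.9% (liver) of all genes that did. Among them, Eif5a, which aids the ribosome at difficult peptide bonds, had 133 to 236 FPKM and log2 ratios from -0.12 in muscle to 0.24 in liver. Tpt1, an abundant growth-related protein that binds elongation factors, had log2 ratios from -0.10 in muscle to 0.20 in WAT. Etf1, the stop codon release factor, had ratios from -0.18 in liver to -0.05 in muscle. Between HFD-veh and NCD-veh, the aminoacyl-tRNA synthetase complex subunit gene Eef1e1 was higher in liver (0.55) and muscle (0.51), the ribosome recycling gene Abce1 in liver (0.52) and the ribosome rescue gene Pelo in WAT (0.52). These were 2 of 10 tested in liver, 1 of 10 in muscle and 1 of 12 in WAT, beside 23.8%, 13.3% and 29.3% of all genes.

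Mitochondria have elongation factors of their own. Of 5 genes, 3 were past 1.4-fold higher in HFD-veh than in NCD-veh liver, with a median log2 ratio of 0.64 beside 0.04 for all genes tested, of which 23.8% passed in either direction. The mitochondrial translocase gene Gfm1 went from 15.9 to 31.4 FPKM (log2 ratio 0.98). Gfm2, for mitochondrial ribosome recycling, went from 8.14 to 12.9 FPKM (0.65), and Guf1, singled out after its values were seen, from 1.68 to 2.67 FPKM (0.64). The other two, Tufm (0.44) and Tsfm (0.25), did not pass. In HFD-ncls liver, Gfm1 had 27.5 FPKM and Gfm2 10.9 FPKM, log2 ratios of -0.19 and -0.23 to HFD-veh liver. The log2 ratio of Guf1 was -0.43, the lowest of the 5, and did not pass 1.4-fold. Tsfm was 0.50 higher on the log2 scale than in HFD-veh liver. It was the only 1 of the 5 past 1.4-fold there, beside 14.9% of all genes. In WAT, BAT and muscle, 0 of the 5 passed in either comparison, beside 7.68% to 29.3% of all genes. Among 7 measured genes for diphthamide, the modified residue of eEF2, 1 passed between HFD-ncls and HFD-veh in each of WAT (Wdr85, 0.52), liver (Dph2, 0.86) and muscle (Dnajc24, 0.58), all at low levels, and 0 in BAT. In that comparison all 7 reached the filter in WAT, BAT and liver and 5 in muscle. Of all genes, 7.68% passed in WAT, 14.9% in liver, 13.9% in muscle and 8.53% in BAT. Between HFD-veh and NCD-veh, 7 could be tested in WAT, 6 in BAT, 5 in muscle and 6 in liver. Of these, 2 were higher and 1 lower in WAT, 1 was lower in each of BAT and muscle, and 0 passed in liver. The shares of all genes were 29.3%, 17.6%, 13.3% and 23.8% in WAT, BAT, muscle and liver.

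Of 38 initiation factors measured, 0 passed 1.4-fold between HFD-ncls and HFD-veh in WAT, BAT and liver, and 1 passed in muscle. Of all genes, 7.68%, 8.53%, 14.9% and 13.9% passed in these organs in the same order. The gene that passed was Eif3a, a scaffold subunit of eIF3, with 28.3, 19.9 and 32.02 FPKM in muscle and a log2 ratio of 0.68. The poly(A)-binding protein gene Pabpc1 had log2 ratios between -0.14 in muscle and 0.19 in liver. The 3 genes of eIF4E-binding proteins were a separate list. Between HFD-ncls and HFD-veh, 1 of the 3 passed in muscle and 0 in WAT, BAT and liver, beside the same shares of all genes. It was Eif4ebp1, which encodes the mTOR-regulated repressor 4E-BP1, with 45.5, 38.4 and 56.3 FPKM in muscle and a log2 ratio of 0.55. For diet 0 of the 3 passed in any organ, beside 13.3% (muscle) to 29.3% (WAT) of all genes. Between HFD-veh and NCD-veh WAT, 5 initiation factors were higher, including Eif1a (0.74) and Eif4g1 (0.50), and 1 was lower, the helicase gene Eif4a2 (-1.25, 86.7 to 36.4 FPKM), while its paralog Eif4a1 was higher (0.62, 105 to 161 FPKM). These 6 of 38 stand beside 29.3% of all genes in WAT. In the other organs, 2 were higher and 1 lower in liver, 1 was lower in muscle and 0 passed in BAT, beside 23.8%, 13.3% and 17.6% of all genes. Both helicase genes were singled out after their values were seen.

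Of 8 genes whose products act on eEF2K, 2 passed 1.4-fold between HFD-ncls and HFD-veh, both in muscle, where 13.9% of all genes did. Rps6ka1 was at 1.83, 2.90 and 1.88 FPKM in muscle, a log2 ratio of -0.60. Mtor was at 3.77 and 5.42 FPKM in HFD-veh and HFD-ncls, a log2 ratio of 0.51. Rps6kb1, a separate S6 kinase gene on the list, passed 1.4-fold in 0 comparisons. Prkaa2, a catalytic subunit of AMP-activated kinase, had 36.2, 27.3 and 34.0 FPKM in the 3 muscle groups and log2 ratios of -0.40 for diet and 0.31 for ncls, neither past 1.4-fold. Between HFD-veh and NCD-veh, 1 of the 8 was higher and 1 lower in WAT, 1 was lower in BAT and 1 higher in muscle, beside 29.3%, 17.6% and 13.3% of all genes. In liver Prkaa2 was higher in HFD-veh than in NCD-veh (0.63), in the same libraries in which Eef2k passed.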

How the data were processed

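The 12 RNA-seq libraries were assigned to organ and group by their sample labels. Alignment by the authors used TopHat 2.0.11 and the mm9 genome, and the FPKM values that they deposited for RefSeq genes came from Cufflinks. How fragments that match several genes were assigned is not given in the sources used here. FPKM is not a count, so no count test was used, and 86 of 22276 symbols lacked a value in at least 1 library. The members and gene lists were chosen with earlier results of these data known.

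Ratios used log2(FPKM + 0.1) and genes that reached an FPKM of 1 in either library, and 1.4-fold is the smaller threshold of the study. The approximate depth (18800000 to 26700000 fragments) came from the steps of low values and annotated transcript lengths. Named genes were all members, up to 3 genes per list past 1.4-fold in most comparisons, 6 partners of known role and, per member, the 3 genes with the highest Pearson r among those that reached an FPKM of 1 in at least 6 libraries (3 for Eef1a2). Positions are from GENCODE vM1 (mm9) and promoters from RefSeq (GRCm38.p6). Alternatives covered the pseudocount, the filter, the scaling, Spearman's rho and leaving out a library from the shares. Scripts ran in Python 3.11.15 (pandas 2.3.3, numpy 2.4.6, Biopython 1.88, scipy 1.17.1, matplotlib 3.10.9), and the ratio step was tested on simulated data. A gene on these lists is not reported here.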

Additional observations from a re-analysis of the deposited data

How the results depend on the processing

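Of 371 values recomputed under alternatives, 333 stayed within the set limits, 38 moved and 0 changed sign past the threshold. For log2 ratios the limit was a shift of 0.1. For Eef1a2 shares with a library left out, the limit was the standard deviation of the organ's own libraries. Leaving out a library cannot shift the mean that far, so these shares could only count as within limits and show no stability. Of 208 values for single members, 8 moved. The log2 ratio of Eef1a2 between HFD-ncls and HFD-veh BAT was -2.29 with a pseudocount of 1 and -3.58 with 0.01, and past 1.4-fold in both. Some ratios within 0.1 of 0 changed sign with the scaling, and no direction is read from ratios of that size. With libraries scaled to the same sum of FPKM, the median log2 ratio of the members in liver between HFD-veh and NCD-veh was -0.0365 in place of -0.14. Past 1.4-fold in that comparison were 0 members with a pseudocount of 1, 0 with a filter at FPKM 5 and 2 without a filter, against 1. Without a filter, Eef1a2 alone was added and 1 member passed in WAT and 1 in liver between HFD-ncls and HFD-veh and 1 in WAT between HFD-veh and NCD-veh. Over all genes, with a pseudocount of 1, 503 passed in WAT, 480 in BAT, 799 in liver and 792 in muscle between HFD-ncls and HFD-veh (933, 881, 1488 and 1351 as reported), and 1189 in BAT and 766 in muscle between HFD-veh and NCD-veh (1835 and 1271). With a filter at FPKM 5 the counts were 308, 319, 609 and 494 for the first comparison and 2117, 861, 1274 and 450 for the second, which tests fewer genes. Without a filter they were 2732, 2558, 3342 and 3315, and 5797, 3703, 4299 and 3277. The mean Eef1a2 share of an organ rests on single libraries outside muscle. In BAT it was 0.840%, with 0.458% without NCD-veh and 1.22% without HFD-ncls, in WAT 0.0287%, with 0.0140% without HFD-ncls and 0.0423% without NCD-veh, and in liver 0.0159%, with 0% without HFD-veh and 0.0239% without either other library. In muscle it stayed between 91.0% and 92.3%. No paired analysis was possible because each organ and group has 1 library. Depth limits Eef1a2 in WAT, liver and HFD-ncls BAT and Eef2k in liver and BAT, which rest on few fragments. Eef1a2 rests on about 631 to 737 fragments in NCD-veh BAT and 304 to 355 in HFD-veh BAT.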
